A study of Mus musculus with 18 samples.

Results

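The genes described here are 10 that make, break down or sense retinoic acid: Rdh10, Dhrs9 and Dhrs3, Aldh1a1, Aldh1a2 and Aldh1a3, Cyp26b1, and the receptor genes Rara, Rarg and Rxra. They were picked by gene symbol in the array annotation, among probe sets that carry 1 symbol. Each has 1 such probe set, and all 10 are among the 14003 genes whose values passed a filter on low signal and were tested. The probe set is 10344952 for Rdh10, 10472538 for Dhrs9, 10510129 for Dhrs3, 10461979 for Aldh1a1, 10586865 for Aldh1a2, 10564417 for Aldh1a3, 10545771 for Cyp26b1, 10381082 for Rara, 10432972 for Rarg and 10470446 for Rxra.

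Retinoic acid is made from vitamin A in a reversible step, in which retinol dehydrogenases oxidise retinol to retinaldehyde, and an irreversible step, in which retinaldehyde dehydrogenases of the Aldh1a family turn retinaldehyde into the acid. Enzymes of the Cyp26 family clear it, and it acts through retinoic acid receptors that bind DNA as heterodimers with retinoid X receptors. Dendritic cells of the gut are known for making retinoic acid, which gives T cells gut-homing receptors and favours regulatory T cells, and Aldh1a2 is the enzyme most often tied to this in CD103+ dendritic cells.

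Gene expression was read on 18 Affymetrix arrays of cells from the colon lamina propria of BALB/c mice aged 8 weeks. The cells lay in an MHC+CD11chigh gate and came in 3 sorted subsets: CD103+CD11b- cells, CD103+CD11b+ cells, and cells with CD11b but no CD103 (CD103-CD11b+). The mice had received 2% DSS (dextran sulfate sodium, which damages the lining of the colon) or were untreated. Each of the 6 groups has 3 arrays: experiments 4 to 6 are DSS and experiments 1 to 3 are untreated, and each experiment gave 1 array of every subset. No experiment holds both conditions, so DSS and experiment cannot be told apart. The labels state neither how many mice were pooled for an array nor the length of DSS treatment, and each array was made from 5 ng of total RNA. Values are the authors' RMA values on a log2 scale, on which 1 unit is a doubling of signal, and they allow a gene to be compared between groups but not with another gene.

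Within each condition the sort genes followed the labels. Itgae, which encodes CD103, averaged 9.61, 9.06 and 7.44 in CD103+CD11b- cells, CD103+CD11b+ cells and then CD103-CD11b+ cells of DSS mice, and 9.37, 8.84 and 6.35 in the same subsets of untreated mice. Itgam, which encodes CD11b, averaged 6.13, 7.36 and 8.01 in DSS mice and 5.14, 7.31 and 7.93 in untreated mice in that order. Arrays of a group correlated at 0.965 to 0.982 over all probe sets. Macrophage markers moved with the subsets: 9 to 10 of the 10 listed lay above the filter level on each array, and their mean ran from 6.02 to 6.12 in CD103+CD11b- and from 7.22 to 7.59 in CD103-CD11b+ cells of DSS mice, and from 5.46 to 5.75 and from 7.27 to 8.02 in those of untreated mice. Their part in the results was not tested. In sorted bulk cells, fewer cells of a type and less RNA per cell cannot be told apart.

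Between the subsets, 3 of the 10 retinoic acid genes were called in both conditions (Dhrs3, Dhrs9 and Rara), 2 were called in untreated mice and not in DSS mice (Aldh1a3 and Rxra), and 5 gave no call. A call in untreated mice alone is not a called difference between conditions, and no gene had a called difference between subsets in its DSS change. Called here means an adjusted p under 0.05 in limma, with the Benjamini-Hochberg method over all 14003 genes, and errors after ± beside a difference are limma's standard errors. Set against CD103-CD11b+ cells, CD103+CD11b- cells of DSS mice had 2 of the 10 genes higher (4.19% of all genes) and 1 lower (4.34%), where 8.53% of all genes were called in either direction. In untreated mice they had 3 higher (5.01% of all genes) and 2 lower (5.32%), where 10.3% were called. Set against CD103+CD11b+ cells, they had 1 higher (3.56% of all genes) and 1 lower (2.39%) in DSS mice, where 5.96% were called, and 2 higher (2.76%) and 1 lower (4.09%) in untreated mice, where 6.86% were called. Dhrs3 was lower and Rara higher in CD103+CD11b- cells in all 4 of these comparisons, and Dhrs9 was higher in 3 of them. The comparisons of a condition share the CD103+CD11b- arrays. CD103+CD11b+ cells against CD103-CD11b+ cells gave no called retinoic acid gene in DSS mice by limma (1.58% of all genes called). At an unadjusted p under 0.05 that comparison had 2 of the 10 genes, beside 9.61% of all genes. The same comparison gave 1 in untreated mice, which was higher (4.11% called, 2.36% higher).

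Without regard to the test, the 3 values of CD103+CD11b- cells lay wholly above or below those of CD103-CD11b+ cells for 4 of the 10 genes in DSS mice (24.6% of all genes) and for 5 in untreated mice (22.6%). Against CD103+CD11b+ cells the counts were 4 in DSS mice (22.8% of all genes) and 5 in untreated mice (22%). For CD103+CD11b+ against CD103-CD11b+ cells they were 3 (16.5%) and 4 (17.4%). The median size of the difference, without its sign, over the 10 genes was 0.26 in DSS mice and 0.43 in untreated mice for CD103+CD11b- against CD103-CD11b+ cells, beside 0.15 and 0.16 over all genes.

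**Figure D1:**
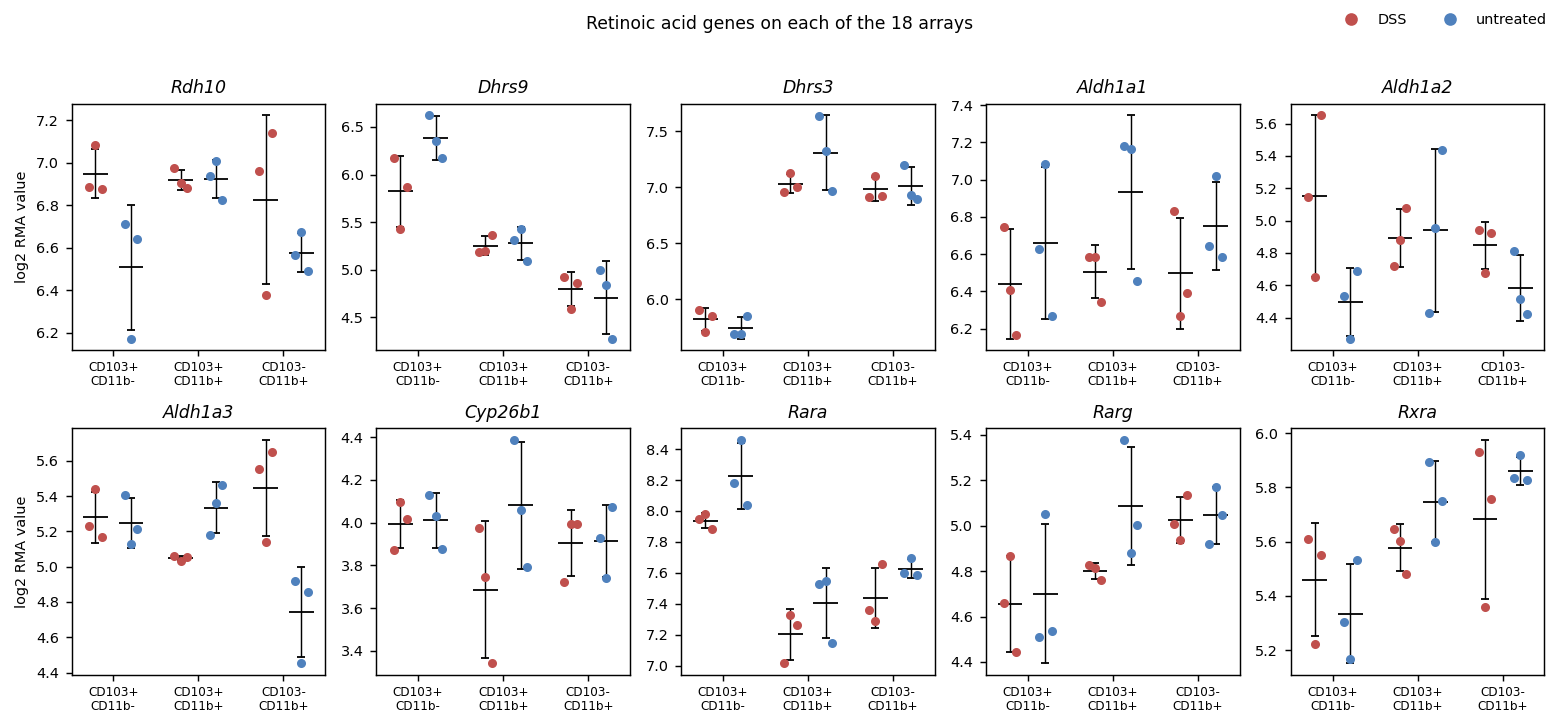
The log2 RMA value of each retinoic acid gene (y axis, a scale of its own in each panel that does not start at 0) is plotted for the 3 subsets (x axis), with DSS arrays in red left of untreated arrays in blue. Points are arrays, the horizontal bar is the group mean and the whiskers are 1 SD over 3 arrays. Dhrs9 and Rara stand highest in CD103+CD11b- cells and Dhrs3 stands lowest there, in both conditions.

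Dhrs9 was highest in CD103+CD11b- cells. The enzyme, a short-chain dehydrogenase, oxidises retinol and some steroids, as known from the human and rat proteins. In DSS mice its values were 6.17, 5.43 and 5.87 in CD103+CD11b- cells, 5.19, 5.20 and 5.37 in CD103+CD11b+ cells, and 4.93, 4.59 and 4.87 in CD103-CD11b+ cells. In untreated mice they were 6.63, 6.35 and 6.17, then 5.31, 5.43 and 5.09, then 5.00, 4.84 and 4.28 in the same order of subsets. The 3 subsets formed a step in each condition: CD103+CD11b- cells lay above CD103+CD11b+ cells, which lay above CD103-CD11b+ cells, with no overlap between neighbours. CD103+CD11b- cells were higher than CD103-CD11b+ cells by 1.03 ± 0.20 in DSS mice, a 2.04-fold difference (adjusted p = 0.00151), and in untreated mice the fold was 3.19 (adjusted p = 5.54e-06). Against CD103+CD11b+ cells the difference was 0.57 ± 0.20 in DSS mice, with an adjusted p of 0.112, and in untreated mice CD103+CD11b- cells were higher by 1.11 ± 0.20 (adjusted p = 0.000895). The DSS value gave no call in 15 of 18 other settings, with an adjusted p of up to 0.708 and a value of 0.36 without experiment 4. It passed with the experiment as a replicate block (adjusted p = 0.0281), with the mean of the epithelial markers as a covariate, at 0.89 (adjusted p = 0.0011), and, at 0.76, when the CD103+CD11b- array of experiment 5 was left out (adjusted p = 0.0322). The middle step, CD103+CD11b+ against CD103-CD11b+ cells, measured 0.46 ± 0.20 in DSS mice (adjusted p = 0.43) and 0.57 ± 0.20 in untreated mice (adjusted p = 0.13). The untreated step gave no call in 17 of 18 other settings, and was 0.35 without the CD103-CD11b+ array of experiment 3 (adjusted p = 0.393). It passed with the replicate block (adjusted p = 0.0371). Within experiments the order held 6 of 6 times for each of the 3 pairs of subsets. Over the 6 groups the order was untreated CD103+CD11b- cells, DSS CD103+CD11b- cells, both CD103+CD11b+ groups and both CD103-CD11b+ groups, and the DSS and untreated groups overlapped in both CD11b+ subsets.

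An epithelial signal was present on every array. All 12 listed epithelial markers lay above the filter level on all 18 arrays, and their mean ran from 7.90 to 8.28, 8.36 to 8.47 and 8.09 to 8.54 in CD103+CD11b- cells, CD103+CD11b+ cells and then CD103-CD11b+ cells of DSS mice, and from 8.20 to 8.66, 8.53 to 9.03 and 8.31 to 8.87 in those of untreated mice. The list mean was on average lowest in CD103+CD11b- cells in both conditions. Dhrs9 and the list mean had an r of -0.02 over the 18 arrays, and of 0.845 once the group means were removed from both, a description of arrays that share 6 groups and 6 experiments. After the same removal Aldh1a1 had an r of 0.719 with the list mean, Rara 0.603, and the other genes -0.07 to 0.36. With that mean as a covariate, a setting chosen after seeing the data, Dhrs9 was higher in CD103+CD11b- cells than in CD103-CD11b+ cells by 1.29 in DSS mice (adjusted p = 9.17e-06) and 1.80 in untreated mice (adjusted p = 5.24e-08). The same setting gave, against CD103+CD11b+ cells, 0.89 in DSS mice (adjusted p = 0.0011) and 1.44 in untreated mice (adjusted p = 6.3e-06). For CD103+CD11b+ against CD103-CD11b+ cells it gave 0.40 in DSS mice and 0.36 in untreated mice, with no call. The part of the epithelial signal in the Dhrs9 and Rara differences was not tested.

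Dhrs3 ran the other way. The gene encodes a retinaldehyde reductase, which turns retinaldehyde back into retinol and is itself induced by retinoic acid in many cells. CD103+CD11b- cells read 5.90, 5.70 and 5.85 in DSS mice, against 6.961, 7.126 and 7.004 in CD103+CD11b+ cells and 6.91, 7.10 and 6.92 in CD103-CD11b+ cells. In untreated mice CD103+CD11b- cells read 5.69, 5.69 and 5.85, against 7.64, 7.32 and 6.96 in CD103+CD11b+ cells and 7.20, 6.93 and 6.89 in CD103-CD11b+ cells. The highest CD103+CD11b- array was thus about 1 unit below the lowest array of either other subset, and both CD11b+ subsets overlapped. CD103+CD11b- cells were 2.31-fold lower than CD103+CD11b+ cells in DSS mice (-1.21 ± 0.15, adjusted p = 2.51e-05) and 2.96-fold lower in untreated mice (-1.56 ± 0.15, adjusted p = 8.18e-07). The folds against CD103-CD11b+ cells were 2.23 in DSS mice (-1.16 ± 0.15, adjusted p = 2.27e-05) and 2.40 in untreated mice (adjusted p = 6.2e-06). These 4 calls held in each of 18 other settings, and within experiments CD103+CD11b- cells read lower than both other subsets 6 of 6 times. Between both CD11b+ subsets there was no call, with CD103+CD11b+ minus CD103-CD11b+ at 0.05 (95% interval -0.26 to 0.36) in DSS mice and 0.30 (-0.01 to 0.61) in untreated mice. Within experiments CD103+CD11b+ cells read higher than CD103-CD11b+ cells 6 of 6 times, by 0.02 to 0.44.

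The sequences at the start sites of Dhrs9 and Dhrs3 are shown because both genes act on the reversible step and differed in opposite directions between the same cells. They run from 250 bases before to 50 bases after a transcription start site in RefSeq's GRCm38.p6, as chr2:69380212-69380511 on the plus strand for Dhrs9 and chr4:144892577-144892876 on the plus strand for the first of 3 start sites of Dhrs3. Capitals mark the hexamer AGGTCA and its variant GGGTCA, as well as AGTTCA with its variant GGTTCA, the core that retinoic acid receptors and other nuclear receptors recognise, searched on both strands.
Dhrs9 start site: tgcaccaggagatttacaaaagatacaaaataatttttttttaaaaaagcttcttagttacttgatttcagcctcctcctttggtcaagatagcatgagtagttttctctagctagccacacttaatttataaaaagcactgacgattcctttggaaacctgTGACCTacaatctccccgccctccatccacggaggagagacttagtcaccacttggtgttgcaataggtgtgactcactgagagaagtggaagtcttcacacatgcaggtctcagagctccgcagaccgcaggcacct
Dhrs3 start site: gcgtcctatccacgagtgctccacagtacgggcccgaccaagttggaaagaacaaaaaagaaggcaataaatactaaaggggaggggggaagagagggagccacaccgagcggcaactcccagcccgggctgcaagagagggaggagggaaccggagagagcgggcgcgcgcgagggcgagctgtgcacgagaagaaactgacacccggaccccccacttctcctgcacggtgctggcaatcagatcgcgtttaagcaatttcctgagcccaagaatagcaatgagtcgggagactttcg
Dhrs9 had 1 match, on the minus strand at position -88 with the start site as 0, and the Dhrs3 window had none of these letters. Windows were found for 8 of the 10 genes, 16 windows in all, of which 6 held at least 1 hexamer, and 43.7% of all 32851 windows of this length in the table did. None of the 16 held 2 such hexamers in direct repeat with a spacer of 1, 2 or 5 bases, an arrangement in 0.222%, 0.268% and 0.0974% of all windows. A match is a description of the letters and not a bound site.

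Rdh10, the enzyme that makes most retinaldehyde in the mouse embryo, gave no call in any comparison. Its values in DSS mice were 6.89, 7.08 and 6.88 in CD103+CD11b- cells, 6.97, 6.91 and 6.88 in CD103+CD11b+ cells, and 6.96, 6.38 and 7.14 in CD103-CD11b+ cells. In untreated mice they were 6.71, 6.17 and 6.64, then 6.94, 7.01 and 6.83, then 6.57, 6.67 and 6.49 in the same order. In untreated mice all 3 CD103+CD11b+ arrays lay above all arrays of the other subsets, and in DSS mice the subsets overlapped. CD103+CD11b- minus CD103+CD11b+ was 0.03 ± 0.17 in DSS mice (adjusted p = 0.975) and -0.42 ± 0.17 in untreated mice (adjusted p = 0.182), and -0.25 in the last without the CD103+CD11b- array of experiment 2. CD103+CD11b+ minus CD103-CD11b+ was 0.09 ± 0.17 in DSS mice and 0.35 ± 0.17 in untreated mice (adjusted p = 0.33), and CD103+CD11b- minus CD103-CD11b+ was 0.12 in DSS mice and -0.07 in untreated mice.

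**Figure D2:**
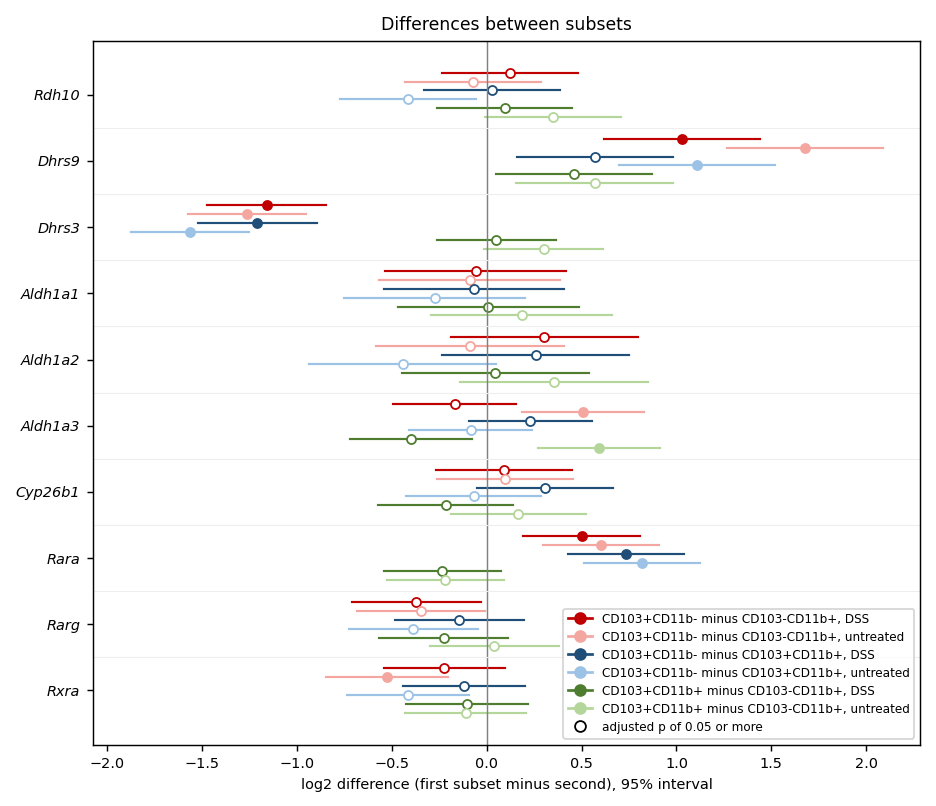
Each row is a retinoic acid gene and the x axis is the log2 difference between 2 subsets, first minus second, with its 95% interval from limma. Darker colours are DSS mice, lighter colours are untreated mice, and filled points have an adjusted p under 0.05. Dhrs3 lies near -1.2 in DSS mice and between -1.6 and -1.3 in untreated mice for CD103+CD11b- cells against either other subset, while the 3 Aldh1a genes, Cyp26b1 and Rdh10 lie mostly within 0.5 of 0.

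The 3 retinaldehyde dehydrogenases, which carry out the last step of retinoic acid synthesis, did not share a pattern over the subsets. Aldh1a2, the form usually named as the dendritic cell enzyme, read 5.14, 4.65 and 5.65 in CD103+CD11b- cells, 4.72, 4.88 and 5.07 in CD103+CD11b+ cells, and 4.94, 4.68 and 4.92 in CD103-CD11b+ cells of DSS mice. In untreated mice it read 4.53, 4.27 and 4.69, then 4.43, 4.95 and 5.44, then 4.81, 4.52 and 4.42 in the same order. All 3 subsets overlapped in both conditions. CD103+CD11b- minus CD103-CD11b+ was 0.30 (95% interval -0.19 to 0.80) in DSS mice and -0.09 (-0.58 to 0.41) in untreated mice. CD103+CD11b+ minus CD103-CD11b+ was 0.05 (-0.45 to 0.54) in DSS mice and 0.35 (-0.15 to 0.85) in untreated mice. CD103+CD11b- minus CD103+CD11b+ was 0.26 (-0.24 to 0.75) and -0.44 (-0.94 to 0.05). These arrays thus gave no call of Aldh1a2 for the CD103+ subsets against CD103-CD11b+ cells, with adjusted p-values of 0.502 or more, and the intervals allow a difference of up to 0.85 in untreated mice. Its lowest array read 4.27, beside a median of 4.04 over all values of the table. Without detection calls, how far the Aldh1a2 signal lies above background is not known.

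Aldh1a1, a retinaldehyde dehydrogenase that epithelial and other cells also express, read 6.75, 6.41 and 6.16 in CD103+CD11b- cells, 6.59, 6.59 and 6.34 in CD103+CD11b+ cells, and 6.83, 6.27 and 6.39 in CD103-CD11b+ cells of DSS mice. In untreated mice it read 6.63, 7.08 and 6.27, then 7.18, 7.16 and 6.46, then 6.64, 7.02 and 6.59. The subsets overlapped in both conditions, and the differences between them ran from -0.07 to 0.01 in DSS mice and from -0.27 to 0.18 in untreated mice, each with an adjusted p of at least 0.579. The order of the Aldh1a1 group means was the order of the epithelial marker means, CD103+CD11b+ above CD103-CD11b+ above CD103+CD11b- cells in both conditions. That order rests on uncalled differences, and in DSS mice the means of both CD11b+ subsets were 6.506 and 6.498. With the marker mean as a covariate the subset differences ran from -0.05 to 0.26 in DSS mice and from -0.03 to 0.07 in untreated mice. Over the 18 arrays Aldh1a1 and the marker mean had an r of 0.784, and of 0.719 once the group means were removed. The part of the epithelial signal in the Aldh1a1 values was not tested.

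Aldh1a3 had opposite orders of subset means in DSS and untreated mice. It read 5.23, 5.44 and 5.17 in CD103+CD11b- cells, 5.06, 5.03 and 5.06 in CD103+CD11b+ cells, and 5.56, 5.14 and 5.65 in CD103-CD11b+ cells of DSS mice. In untreated mice it read 5.40, 5.13 and 5.21, then 5.18, 5.36 and 5.46, then 4.92, 4.45 and 4.86. The 3 CD103-CD11b+ arrays were thus above those of CD103+CD11b+ cells in DSS mice and below those of both CD103+ subsets in untreated mice. In DSS mice CD103+CD11b+ minus CD103-CD11b+ was -0.40 ± 0.15 (adjusted p = 0.329) and CD103+CD11b- minus CD103-CD11b+ was -0.17 ± 0.15 (adjusted p = 0.676). In untreated mice CD103+CD11b+ cells were higher than CD103-CD11b+ cells by 0.59 ± 0.15 (1.51-fold, adjusted p = 0.0336) and CD103+CD11b- cells by 0.51 ± 0.15 (1.42-fold, adjusted p = 0.0413). The third difference, CD103+CD11b- minus CD103+CD11b+, was 0.23 in DSS mice and -0.09 in untreated mice. The untreated calls did not hold in 7 and 12 of 18 other settings. For CD103+CD11b+ cells these include leaving out their arrays of experiments 2 and 3, at 0.58 and 0.53 (adjusted p = 0.102 each), or the CD103-CD11b+ array of experiment 2, at 0.45 (adjusted p = 0.167). For CD103+CD11b- cells they include leaving out their arrays of experiments 1, 2 and 3, at 0.43, 0.57 and 0.53 (adjusted p = 0.171, 0.0541 and 0.084), or the CD103-CD11b+ array of experiment 2, at 0.36 (adjusted p = 0.207), and the replicate block (adjusted p = 0.0529).

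Cyp26b1, which oxidises retinoic acid for clearance, lay under the filter level of 3.51 on 1 of 18 arrays, while the other 9 genes lay above it on all 18. It read 3.87, 4.09 and 4.02 in CD103+CD11b- cells, 3.97, 3.75 and 3.34 in CD103+CD11b+ cells, and 3.72, 3.99 and 3.99 in CD103-CD11b+ cells of DSS mice, and 4.13, 4.03 and 3.87, then 4.39, 4.06 and 3.79, then 3.93, 3.74 and 4.07 in untreated mice. The subsets overlapped in both conditions. The differences between subsets lay between -0.22 and 0.31 in DSS mice and between -0.07 and 0.17 in untreated mice, with no call. The values carry no detection calls, so whether this signal lies above background is not known.

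Among the receptor genes, Rara, which encodes retinoic acid receptor alpha, was higher in CD103+CD11b- cells. It read 7.95, 7.98 and 7.88 there, against 7.02, 7.33 and 7.27 in CD103+CD11b+ cells and 7.36, 7.29 and 7.66 in CD103-CD11b+ cells of DSS mice. In untreated mice it read 8.18, 8.46 and 8.04, against 7.53, 7.55 and 7.15 in CD103+CD11b+ cells and 7.60, 7.70 and 7.59 in CD103-CD11b+ cells. Every CD103+CD11b- array lay above every array of the other subsets of either condition, and both CD11b+ subsets overlapped in DSS mice. The rise over CD103+CD11b+ cells was 1.66-fold in DSS mice (0.73 ± 0.15, adjusted p = 0.003) and 1.76-fold in untreated mice (0.82 ± 0.15, adjusted p = 0.000966). Against CD103-CD11b+ cells it was 1.41-fold in DSS mice (0.50 ± 0.15, adjusted p = 0.0373) and 1.52-fold in untreated mice (0.60 ± 0.15, adjusted p = 0.0102). The DSS call against CD103-CD11b+ cells did not hold in 9 of 18 other settings (adjusted p up to 0.315). Among these were leaving out the CD103+CD11b- array of experiment 4, 5 or 6, at 0.49, 0.48 and 0.53 (adjusted p = 0.104, 0.113 and 0.0738), and the CD103-CD11b+ array of experiment 4 or 5, at 0.46 and 0.43 (adjusted p = 0.134 and 0.150). The untreated call did not hold in 3 of 18, with 0.48 (adjusted p = 0.0691) without the CD103+CD11b- array of experiment 2, and adjusted p = 0.0718 and 0.0906 without experiment 1 or 2. The DSS call against CD103+CD11b+ cells was lost without experiment 4 (adjusted p = 0.0979). Both CD11b+ subsets differed by -0.23 in DSS mice and -0.22 in untreated mice, CD103+CD11b+ minus CD103-CD11b+, with no call. Within experiments CD103+CD11b- cells read higher than both other subsets 6 of 6 times.

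Of the 4 start sites of Rara in the RefSeq table, the third (chr11:98939461-98939760, plus strand, GRCm38.p6) held the most hexamers of any window of the 10 genes, and is shown for that reason, with the capitals as above.
Rara start site: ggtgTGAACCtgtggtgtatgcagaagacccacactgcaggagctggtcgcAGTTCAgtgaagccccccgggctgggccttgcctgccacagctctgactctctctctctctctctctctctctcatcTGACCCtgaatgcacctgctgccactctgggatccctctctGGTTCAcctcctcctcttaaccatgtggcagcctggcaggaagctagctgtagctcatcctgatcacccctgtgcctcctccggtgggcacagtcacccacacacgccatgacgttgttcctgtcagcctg
Its 4 matches lie at positions -246, -199, -122 and -81 from the start site, and no 2 of them form a direct repeat with a spacer of 1, 2 or 5 bases. The other 3 windows of Rara held 1 match in all.

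Rxra encodes retinoid X receptor alpha, the partner that retinoic acid receptors need to bind DNA. It read 5.61, 5.22 and 5.55 in CD103+CD11b- cells, 5.65, 5.60 and 5.48 in CD103+CD11b+ cells, and 5.93, 5.36 and 5.76 in CD103-CD11b+ cells of DSS mice, and 5.30, 5.17 and 5.53, then 5.90, 5.60 and 5.75, then 5.83, 5.92 and 5.83 in untreated mice. The untreated CD103+CD11b- arrays lay below those of both other subsets, and the DSS arrays overlapped. CD103+CD11b- minus CD103-CD11b+ was -0.22 ± 0.15 in DSS mice (adjusted p = 0.522), and in untreated mice CD103+CD11b- cells were lower (-0.52 ± 0.15, adjusted p = 0.0333). The DSS change in CD103+CD11b- minus that in CD103-CD11b+ cells was 0.30 ± 0.22 (unadjusted p = 0.179), with no call. The untreated call did not hold in 10 of 18 other settings, with an adjusted p of up to 0.263. Among these were leaving out the CD103+CD11b- array of experiment 1 or 2, at -0.51 and -0.44 (adjusted p = 0.0946 and 0.148), and the CD103-CD11b+ array of experiment 1, 2 or 3, at -0.54, -0.50 and -0.54 (adjusted p = 0.0689, 0.0972 and 0.0627). Against CD103+CD11b+ cells the difference was -0.12 ± 0.15 in DSS mice (adjusted p = 0.844) and -0.41 ± 0.15 in untreated mice (adjusted p = 0.13), and both CD11b+ subsets gave no call.

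Rarg, which encodes retinoic acid receptor gamma, read 4.66, 4.86 and 4.44 in CD103+CD11b- cells, 4.83, 4.81 and 4.76 in CD103+CD11b+ cells, and 5.01, 4.94 and 5.14 in CD103-CD11b+ cells of DSS mice. In untreated mice it read 4.51, 5.05 and 4.54, then 5.38, 4.88 and 5.00, then 4.92, 5.17 and 5.05. In DSS mice the CD103-CD11b+ arrays lay above both CD103+ subsets, and in untreated mice the subsets overlapped. CD103+CD11b- minus CD103-CD11b+ was -0.37 ± 0.16 in DSS mice (adjusted p = 0.211) and -0.35 ± 0.16 in untreated mice (adjusted p = 0.236, and -0.52 with an adjusted p of 0.0528 without the CD103+CD11b- array of experiment 2), and CD103+CD11b- cells read lower in 6 of 6 experiments. CD103+CD11b+ minus CD103-CD11b+ was -0.23 in DSS mice and 0.04 in untreated mice, with no call. Against CD103+CD11b+ cells the untreated difference of -0.39 ± 0.16 (adjusted p = 0.192) became a call without the CD103+CD11b- array of experiment 2, at -0.56 (adjusted p = 0.044), or without experiment 2, at -0.67 (adjusted p = 0.0264). It was -0.24 without the CD103+CD11b+ array of experiment 1 (adjusted p = 0.57).

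**Figure D3:**
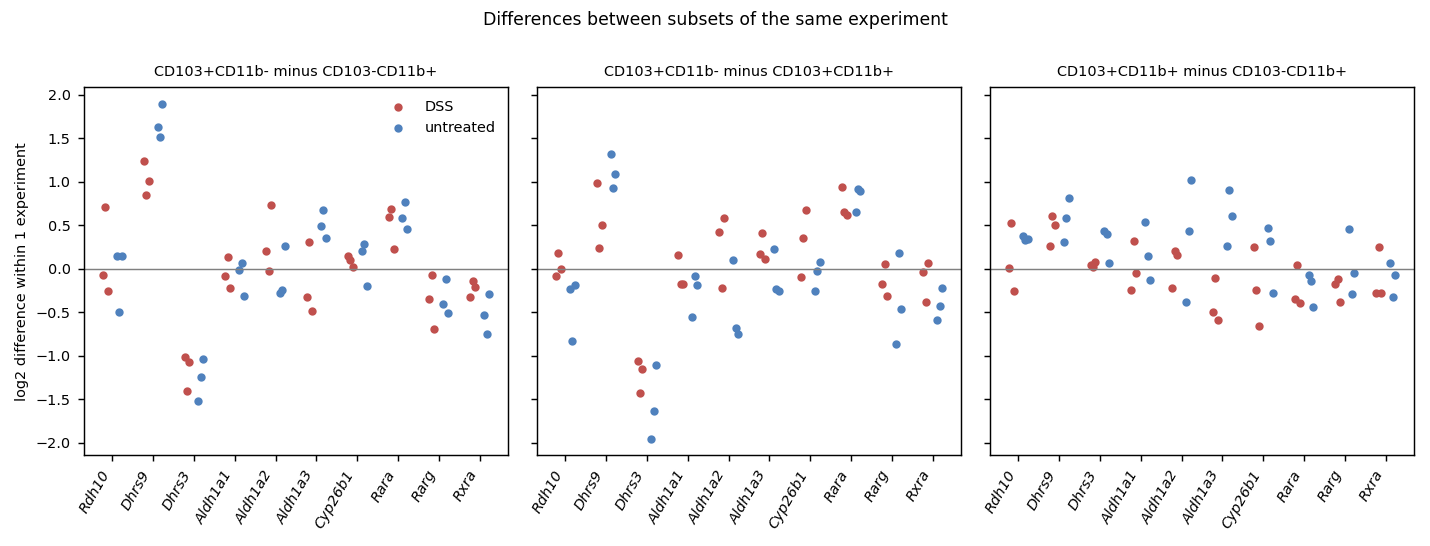
Each point is the log2 difference between 2 subsets of the same experiment (y axis) for a retinoic acid gene (x axis), with the 3 DSS experiments in red left of the 3 untreated experiments in blue. Dhrs9 and Rara lie above 0 and Dhrs3 below 0 in 6 of 6 experiments in the panels of CD103+CD11b- against CD103-CD11b+ and against CD103+CD11b+ cells.

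DSS against untreated gave no called retinoic acid gene in any subset by limma. In CD103+CD11b- cells 0.129% of all genes were called, in CD103+CD11b+ cells 0.0857% and in CD103-CD11b+ cells 0.1%. At an unadjusted p under 0.05 there were 3, 1 and 1 of the 10 genes, beside 6.08%, 10.1% and 7.67% of all genes. The DSS and untreated values did not overlap for 3, 2 and 1 of the 10 genes, beside 12.3%, 15.5% and 11.5% of all genes. The median size of the change without its sign was 0.17, 0.24 and 0.18 for the 10 genes and 0.12, 0.14 and 0.13 for all genes.

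The change of Aldh1a3 in CD103-CD11b+ cells had the lowest p of the 30 changes. The DSS arrays read 5.56, 5.14 and 5.65, all above the untreated arrays at 4.92, 4.45 and 4.86, and the difference was 0.71 ± 0.15 (95% interval 0.38 to 1.03, unadjusted p = 0.000213, adjusted p = 0.103). It was 0.03 ± 0.15 in CD103+CD11b- cells and -0.28 ± 0.15 in CD103+CD11b+ cells. The change in CD103+CD11b+ minus that in CD103-CD11b+ cells was -0.99 ± 0.22 (unadjusted p = 0.00023, adjusted p = 0.644), and in CD103+CD11b- minus CD103-CD11b+ cells -0.68 ± 0.22 (adjusted p = 1). It passed the adjusted threshold in 0 of 21 other settings, in which its value ran from 0.56 to 0.86 and the adjusted p from 0.0562 to 0.59.

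In CD103+CD11b- cells, 3 genes had an unadjusted p under 0.05. Aldh1a2 was at 0.65 ± 0.24 (interval 0.16 to 1.15, adjusted p = 0.676), with 1 DSS array inside the untreated range, and at 0.40 without the DSS array of experiment 6. Dhrs9 was at -0.56 ± 0.20 (interval -0.97 to -0.15, adjusted p = 0.647), with the highest DSS and the lowest untreated array both at 6.17 on rounding, at -0.37 without the DSS array of experiment 5, and at -0.18 with the epithelial covariate. Rdh10 was at 0.44 ± 0.17 (interval 0.08 to 0.80, adjusted p = 0.75), with all DSS arrays above the untreated ones, and at 0.27 without the untreated array of experiment 2. Rara was at -0.29 ± 0.15 (adjusted p = 0.822) and its groups did not overlap, and Aldh1a1 was at -0.22, Rxra at 0.13, Dhrs3 at 0.08, Aldh1a3 at 0.03, Rarg at -0.04 and Cyp26b1 at -0.02. The Dhrs9 change in CD103+CD11b- minus that in CD103-CD11b+ cells was -0.65 ± 0.28 (unadjusted p = 0.0312, adjusted p = 1). The Aldh1a2 change in CD103+CD11b- minus that in CD103+CD11b+ cells was 0.70 ± 0.33 (unadjusted p = 0.049, adjusted p = 0.983), and 0.45 without either the DSS CD103+CD11b- array of experiment 6 or the untreated CD103+CD11b+ array of experiment 3.

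In CD103+CD11b+ cells Cyp26b1 was at -0.39 ± 0.17 (unadjusted p = 0.0322, adjusted p = 0.435) and its lowest DSS array was at 3.34. Without the DSS array of experiment 6 it was at -0.22, and without the untreated array of experiment 1 at -0.24. Aldh1a1 was at -0.43 ± 0.23, and -0.02 with the epithelial covariate. Rarg was at -0.29, Aldh1a3 and Dhrs3 at -0.28, Rara at -0.20, Rxra at -0.17, Aldh1a2 at -0.05, Dhrs9 at -0.02 and Rdh10 at 0.00 on rounding. In CD103-CD11b+ cells, beside Aldh1a3, Aldh1a2 was at 0.26, Rdh10 at 0.25, Aldh1a1 at -0.25, Rara at -0.19, Rxra at -0.18, Dhrs9 at 0.09, Dhrs3 at -0.03, Rarg at -0.02 and Cyp26b1 at -0.01. For Dhrs3 the intervals of the DSS change were -0.24 to 0.39, -0.59 to 0.04 and -0.34 to 0.29 in CD103+CD11b- cells, CD103+CD11b+ cells and then CD103-CD11b+ cells.

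Over all subsets, with each experiment as 1 value, 0.186% of all genes and none of the 10 were called by limma, and 2 of the 10 had an unadjusted p under 0.05, beside 10.5% of all genes. These were Rdh10 at 0.23 ± 0.09 (adjusted p = 0.408) and Rara at -0.23 ± 0.10 (adjusted p = 0.471). The others ran from Aldh1a1 at -0.30 through Dhrs9, Cyp26b1, Rarg, Dhrs3, Rxra and Aldh1a3 to Aldh1a2 at 0.29. In the tests of whether the DSS change differed between subsets, 0% of all genes were called, and 2, 1 and 1 of the 10 genes had an unadjusted p under 0.05 for CD103+CD11b- cells against CD103-CD11b+ cells, for CD103+CD11b- cells against CD103+CD11b+ cells, and for the remaining pair, beside 3.64%, 4.83% and 5.56% of all genes.

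The neutrophil list read higher on average in DSS mice and the B and plasma cell list lower, with few calls of single markers. Of 9 neutrophil markers, 5 to 8 lay above the filter level on DSS arrays and 5 to 6 on untreated arrays, and their mean ran from 4.31 to 5.28, 4.52 to 5.53 and 4.77 to 5.58 in CD103+CD11b- cells, CD103+CD11b+ cells and then CD103-CD11b+ cells of DSS mice, and from 3.89 to 4.31, 4.20 to 4.31 and 4.39 to 4.69 in those of untreated mice. The lowest DSS array lay inside the untreated range in CD103+CD11b- cells. Of 7 neutrophil markers tested, 1 was called higher in CD103+CD11b- cells, 1 in CD103+CD11b+ cells and 0 in CD103-CD11b+ cells. The mean of 6 B and plasma cell markers averaged 7.25, 7.33 and 7.38 in DSS mice and 7.53, 7.74 and 7.59 in untreated mice, and 0 of the 6 were called in any subset by limma. With DSS the sort gene Itgae was called higher in CD103-CD11b+ cells, at 1.08 ± 0.13 (limma, adjusted p = 0.00103). It was at 0.24 in CD103+CD11b- and 0.22 in CD103+CD11b+ cells, with no call. Itgam was at 0.99 ± 0.20 in CD103+CD11b- cells (adjusted p = 0.084), and at 0.06 and 0.08 in CD103+CD11b+ and CD103-CD11b+ cells. Lists of dendritic cell identity moved too. The mean of 10 cDC1 markers in CD103-CD11b+ cells ran from 6.77 to 6.80 with DSS and 6.18 to 6.46 without. Of these, 2 were called higher, Itgae among them. In CD103+CD11b- cells the cDC2 list ran from 5.78 to 5.82 with DSS and 5.29 to 5.56 without, with 1 call. Its CD103+CD11b+ range was lower with DSS, 7.53 to 7.63 against 7.67 to 7.83. Macrophage means were higher in CD103+CD11b- cells and slightly lower in both other subsets. Whether a subset held the same cells in both conditions was not tested. The part of these lists and sort genes in the DSS differences was not tested.

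**Figure D4:**
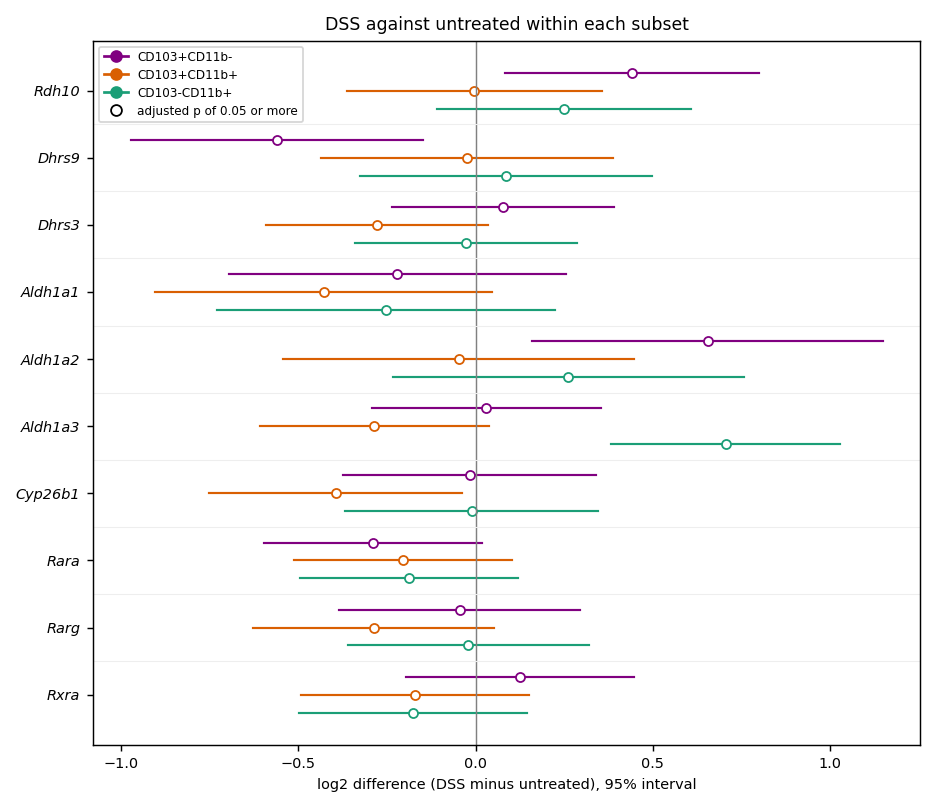
Each row is a retinoic acid gene and the x axis is the log2 difference, DSS minus untreated, with its 95% interval from limma, for each subset in its own colour. All 30 points are open, which marks an adjusted p of 0.05 or more, and the largest is Aldh1a3 in CD103-CD11b+ cells at 0.71.

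Other genes of retinoid handling and signalling were taken from 7 lists with 76 genes, of which 71 had a probe set and 60 were tested. The lists also hold receptors that pair with retinoid X receptors and signals upstream of Aldh1a2. They were chosen with earlier results of these data known, so the shares called describe the lists and do not test them. CD103+CD11b- cells had 2 higher and 11 lower than CD103-CD11b+ cells in DSS mice (21.7% called, beside 8.53% of all genes) and 2 higher and 10 lower in untreated mice (20%, beside 10.3%). Against CD103+CD11b+ cells they had 3 higher and 6 lower in DSS mice (15%, beside 5.96%) and 2 higher and 9 lower in untreated mice (18.3%, beside 6.86%). CD103+CD11b+ against CD103-CD11b+ cells gave 2 lower in DSS mice, Tlr2 and Fabp5 (3.33%, beside 1.58%), and 2 higher in untreated mice, Lipe and Nr4a2 (3.33%, beside 4.11%). The median difference over the 60 genes lay between -0.19 and 0.03 in these 6 comparisons, beside -0.06 to 0.07 over all genes tested. The 4 calls between both CD11b+ subsets were each lost in some of 18 other settings. Tlr2, at -0.80 ± 0.16, lost its call in 4, among them leaving out the CD103+CD11b+ array of experiment 4 or the CD103-CD11b+ array of experiment 6, at -0.72 and -0.68. Fabp5, at -0.62 ± 0.15, lost its call in 12, and was -0.32 with the mean of the kept probe sets (adjusted p = 0.709). Its losses include leaving out the CD103+CD11b+ array of experiment 5 or 6, at -0.62 and -0.49, or any of the 3 CD103-CD11b+ arrays, at -0.60, -0.54 and -0.73. Lipe, at 0.60 ± 0.13, lost its call in 5, among them leaving out the CD103+CD11b+ array of experiment 1 or the CD103-CD11b+ array of experiment 2, at 0.53 and 0.54. Nr4a2, at 0.47 ± 0.12, lost its call in 10, among them leaving out the CD103+CD11b+ array of experiment 1 or 2, at 0.46 and 0.42, or the CD103-CD11b+ array of experiment 2 or 3, at 0.42 and 0.44.

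Among the genes of retinoid uptake and storage, Stra6l differed most between the subsets. Of 12 tested, CD103+CD11b- cells had 1 higher and 4 lower than CD103-CD11b+ cells in DSS mice and 1 higher and 3 lower in untreated mice. Against CD103+CD11b+ cells the counts were 2 higher and 2 lower in DSS mice and 1 higher and 3 lower in untreated mice. Of all genes, 8.53% and 10.3% were called against CD103-CD11b+ cells in DSS and untreated mice, and 5.96% and 6.86% against CD103+CD11b+ cells. Stra6l, a receptor for the plasma carrier of retinol described in mouse liver and intestine, read 6.18, 5.93 and 6.17 in CD103+CD11b- cells, 7.88, 7.96 and 7.89 in CD103+CD11b+ cells, and 8.13, 7.65 and 7.95 in CD103-CD11b+ cells of DSS mice. In untreated mice it read 6.01, 6.09 and 5.52, then 8.35, 7.95 and 8.12, then 7.77, 8.81 and 7.74. The CD103+CD11b- arrays lay more than 1 unit below all others. The difference was -1.82 ± 0.23 in DSS mice against either other subset, and -2.27 ± 0.23 and -2.23 ± 0.23 against CD103+CD11b+ and CD103-CD11b+ cells in untreated mice. Lipe, the hormone-sensitive lipase, which also hydrolyses retinyl esters, was higher in CD103+CD11b- cells than in CD103-CD11b+ cells by 0.76 ± 0.13 in DSS mice and 0.90 ± 0.13 in untreated mice. Dgat1, which makes triglycerides and retinyl esters, was lower in CD103+CD11b- cells than in CD103+CD11b+ cells of DSS mice (log2 difference -0.74 ± 0.13). Scarb1, a scavenger receptor that takes up lipids, was higher there by 0.67 ± 0.14. Lpl, lipoprotein lipase, which also acts on retinyl esters, was lower in CD103+CD11b- cells than in CD103-CD11b+ cells of DSS mice (-1.06 ± 0.20). Over 18 other settings these calls of Stra6l, Lipe and Dgat1 held each time, that of Scarb1 did not hold without experiment 4, at 0.73 (adjusted p = 0.0519), or experiment 6, at 0.47 (adjusted p = 0.200), and that of Lpl did not hold without experiment 6, at -0.88 (adjusted p = 0.0543). Lipe was also higher in CD103+CD11b- cells than in CD103+CD11b+ cells of DSS mice, by 0.48 ± 0.13, and that call was lost in 9 of 18 settings. They include leaving out the CD103+CD11b- array of experiment 4 or 6, at 0.41 and 0.49, or the CD103+CD11b+ array of experiment 5 or 6, at 0.43 and 0.45. In untreated mice the call of Scarb1 against CD103+CD11b+ cells (0.55 ± 0.14) was lost in 7 settings, among them leaving out the CD103+CD11b- array of experiment 2 or 3 or the CD103+CD11b+ array of experiment 2, at 0.48, 0.50 and 0.49. That of Lpl against CD103-CD11b+ cells (-0.81 ± 0.20) was lost in 4, among them leaving out the CD103+CD11b- array of experiment 2 or the CD103-CD11b+ array of experiment 1, at -0.64 and -0.62.

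**Figure D5:**
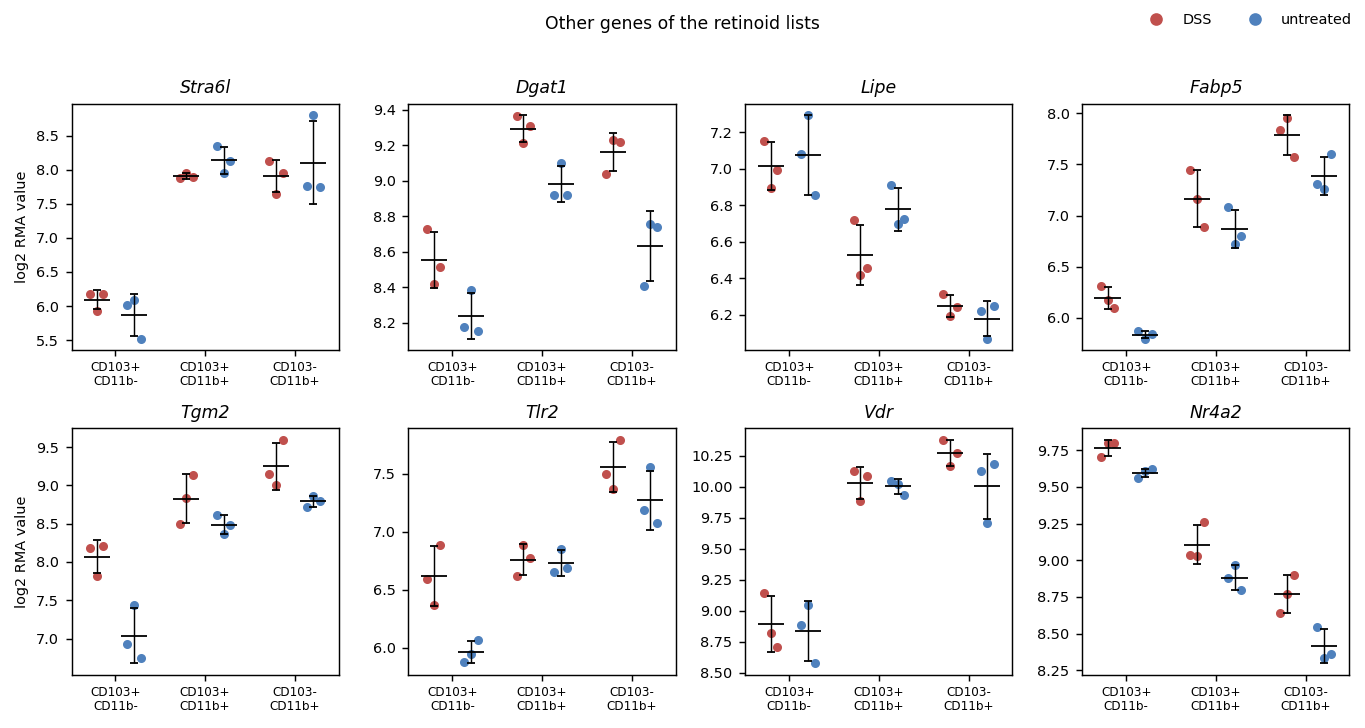
The log2 RMA value (y axis, a scale of its own in each panel that does not start at 0) of 8 called genes of the retinoid lists is plotted by subset (x axis), with DSS arrays in red left of untreated arrays in blue, group means as bars and 1 SD over 3 arrays as whiskers. Stra6l, Fabp5 and Vdr stand lowest in CD103+CD11b- cells and Nr4a2 highest, in both conditions.

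Of 3 tested genes of retinoic acid binding and other breakdown, 1 was called, Fabp5, which encodes a fatty acid carrier that also binds retinoic acid. It averaged 6.20 ± 0.11 in CD103+CD11b- cells, 7.16 ± 0.28 in CD103+CD11b+ cells and 7.78 ± 0.20 in CD103-CD11b+ cells of DSS mice, and 5.84 ± 0.04, 6.87 ± 0.19 and 7.39 ± 0.19 in those of untreated mice (SD over 3 arrays). CD103+CD11b- cells were lower than CD103-CD11b+ cells in DSS mice (log2 difference -1.59 ± 0.15) and in untreated mice (-1.55 ± 0.15). Of 7 tested genes known to respond to retinoic acid, Tgm2, the transglutaminase that the acid induces in macrophages, was called. CD103+CD11b- cells averaged 8.07 ± 0.22 in DSS mice and 7.04 ± 0.36 in untreated mice, lower than CD103-CD11b+ cells in both (log2 differences -1.18 ± 0.19 and -1.75 ± 0.19). In these comparisons of CD103+CD11b- with CD103-CD11b+ cells, 8.53% of all genes were called in DSS mice and 10.3% in untreated mice. Tgm2 was also the gene of the lists called for DSS against untreated, in CD103+CD11b- cells at 1.03 ± 0.19 (adjusted p = 0.0407), with DSS arrays at 8.18, 7.82 and 8.21 and untreated arrays at 6.93, 7.44 and 6.74. That call did not hold in 12 of 21 other settings, among them leaving out the DSS array of experiment 4, 5 or 6, at 0.97, 1.15 and 0.96 (adjusted p = 0.200, 0.0761 and 0.239), and the untreated array of experiment 1 or 3, at 0.98 and 0.88 (adjusted p = 0.189 and 0.256).

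Of 10 receptors that pair with retinoid X receptors, CD103+CD11b- cells had 1 higher and 2 lower than CD103-CD11b+ cells, and 1 higher and 1 lower than CD103+CD11b+ cells, in both conditions. Of all genes, 8.53% and 5.96% were called in these comparisons in DSS mice, and 10.3% and 6.86% in untreated mice. Vdr, the vitamin D receptor, was lower than in CD103-CD11b+ cells in DSS mice (-1.38 ± 0.16) and in untreated mice (-1.17 ± 0.16), and Nr4a2, an orphan receptor, was higher by 1.00 ± 0.12 and 1.18 ± 0.12. Another 8 tested receptors and signal genes came from a list for signals upstream of Aldh1a2, whose effect on it was not tested. In CD103+CD11b- cells, 2 read lower than in CD103-CD11b+ cells in DSS mice (4.34% of all genes) and 3 in untreated mice (5.32%). Against CD103+CD11b+ cells 0 and 2 were lower (2.39% and 4.09% of all genes). Tlr2, which senses bacterial lipopeptides and zymosan, was lower than in CD103-CD11b+ cells in DSS mice (-0.94 ± 0.16) and in untreated mice (-1.31 ± 0.16). Of 13 other retinoid oxidoreductases 1 was called, Rdh11 in DSS CD103+CD11b- against CD103-CD11b+ cells at -0.64 ± 0.18 (8.53% of all genes called). Of 11 other receptors and coregulators 1 was called, Ncoa2 against CD103+CD11b+ cells at -0.51 ± 0.13 in DSS mice and -0.54 ± 0.13 in untreated mice. In those comparisons 5.96% and 6.86% of all genes were called. Rdh11, Ncoa2 and the genes that complete the counts above (Lrp1, Nr1h3, Lrp6, Csf2rb2 and Ctnnb1) fall outside the naming rule and are named after their values were seen. For CD103+CD11b- against CD103-CD11b+ cells the calls of Fabp5, Vdr, Nr4a2, Tlr2 and Tgm2 held in all 18 other settings, while that of Rdh11 did not hold in 9. Against CD103+CD11b+ cells the calls of Ncoa2 did not hold in 5 in DSS mice and 4 in untreated mice. For Rdh11 the losses include leaving out the CD103+CD11b- array of experiment 5 or 6, at -0.63 and -0.53, or the CD103-CD11b+ array of experiment 4 or 5, at -0.63 and -0.57, and the replicate block (adjusted p = 0.0507). For Ncoa2 they include leaving out the CD103+CD11b- array of experiment 4 or the CD103+CD11b+ array of experiment 5, at -0.47 and -0.46, and the CD103+CD11b- array of experiment 3, at -0.45 in untreated mice. On the list for signals upstream of Aldh1a2, 3 genes were lower than in CD103-CD11b+ cells in untreated mice. Of these, Csf2rb2 (-0.36 ± 0.11) lost its call in 12 of 18 settings and Lrp6 (-0.75 ± 0.22) in 7. Without the CD103-CD11b+ array of experiment 2 both were lost, Csf2rb2 at -0.32 (adjusted p = 0.11) and Lrp6 at -0.41 (adjusted p = 0.204), and 1 call was left. Csf2rb2 was also lost without any 1 of the other arrays of these groups and with the replicate block (adjusted p = 0.0513), and Lrp6 without the CD103+CD11b- array of experiment 2 or 3, at -0.64 and -0.76. Tgm2, lower than in CD103+CD11b+ cells of DSS mice, lost that call in 6 settings, among them leaving out the CD103+CD11b- array of experiment 5 or the CD103+CD11b+ array of experiment 5 or 6, at -0.63, -0.75 and -0.60. Nr1h3, lower than in CD103-CD11b+ cells of DSS mice, lost its call in 4, among them leaving out the array of experiment 4 of either subset, at -0.60 and -0.53.

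For the 5 retinoic acid genes called in a comparison, the genes with the most similar values were sought among all genes tested, by Pearson's r over the 18 arrays. Those arrays share 6 groups and 6 experiments, so the coefficients describe a shared pattern of groups and carry no test. Dhrs3 was followed most closely by Cd300a (r = 0.98), Hilpda (0.97) and Mefv (0.95), and over the 6 group means the coefficients were 0.998, 0.995 and 0.971. Dhrs9 was followed by Sdcbp2 (0.91), Ildr1 (0.90) and Prkar2a (0.90), with 0.953, 0.916 and 0.932 over the group means. Rara was followed by Elac2 (0.95), Pi4k2a (0.92) and Cd81 (0.91), with 0.961, 0.970 and 0.976. Within groups, after the group means were removed, Elac2 kept an r of 0.91 with Rara, while Pi4k2a had 0.50 and Cd81 0.33. Rxra was followed by Slc17a5 (0.88), Tlr9 (0.86) and Plxna1 (0.83), and Aldh1a3 by Emc6 (0.75), Trim28 (0.73) and Prmt3 (0.73), so Aldh1a3 had no gene as close as the others did.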

How the data were processed

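Per the labels' protocols, RNA of sorted colon lamina propria cells was amplified from 5 ng and hybridized as 5.5 ug of labelled DNA. Values in the deposited table are on a log2 scale and were made by the authors with RMA, per the submitters' processing notes, which corrects background, normalizes by quantiles and summarizes each probe set. The RMA version and the genome build are not given in the sources used here. Background correction could not be varied, the values carry no detection calls, and the number of arrays limits the precision.

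Of 34760 probe sets, 21640 carry 1 gene symbol, 1321 several and 11799 none in the annotation given. Only the first kind was used. Of these, 21553 matched RefSeq's GRCm38.p6 gene table by gene identifier, which was used for names only, and promoter sequences come from RefSeq for the same build. A probe set was kept if its signal exceeded 3.51 (percentile 40 over the whole table) on at least 3 of 18 arrays. The kept probe set with the highest mean stood for a gene, which left 14003 genes.

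All 18 arrays entered a linear model with 6 group means in limma 3.58.1 (R 4.3.3, with the package data.table, version 1.17.8) with empirical Bayes. The experiment that subsets share was not a term of this model, and entered as a term only in the alternative with the replicate block. The 13 comparisons were two-sided, and DSS against untreated over all subsets used the mean of each of the 6 experiments. Calls needed an adjusted p under 0.05 (Benjamini-Hochberg over all genes tested). The fit was tested on simulated data with known changes.

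The labels do not say that arrays of a group came from separate animals, so the p-values measure the spread between these arrays, which may be technical. The experiment number in the labels marks arrays of a shared experiment. Residuals of same-numbered arrays correlated at 0.11 to 0.31 in DSS mice (median 0.18, 9 of 9 pairs over 0.1) and at -0.03 to 0.32 in untreated mice (median 0.25, 8 of 9 over 0.1), against medians of -0.13 and -0.12 for other pairs.

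All 10 members are named throughout. Of the other retinoid genes, those called were named up to 5 each way per comparison by size. For each member called, the 3 most similar genes were named. The members, gene lists and tests were chosen with earlier results of these data known. Alternatives covered the filter, the probe set rule, repeated quantile normalization, array weights, an intensity trend, only the groups compared, the replicate block and leaving out each array. The epithelial covariate and leaving out whole experiments were added after seeing the data.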

Additional observations from a re-analysis of the deposited data

How the results depend on the processing

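Of the 2630 differences of the 10 genes recomputed under other settings, 42 lost a call, 6 gained one and none reversed a called direction, and 160 changed sign while neither value passed. Dhrs3 in its 4 called comparisons, Dhrs9 in its 3 and Rara in untreated mice against CD103+CD11b+ cells kept their call in all 18 settings. Of the other retinoid genes, 122 of 903 recomputed calls were lost.

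The replicate block moved the count of called members in untreated mice, CD103+CD11b+ cells against CD103-CD11b+ cells, to 2, against 1 without it, and beyond the changed calls given for Dhrs9 and Aldh1a3 it changed no call of a member. In that comparison array weights and the fit of only the groups compared gave 0 members, with 367 and 150 genes called in place of 575. For CD103+CD11b- cells of untreated mice against CD103-CD11b+ cells, 5 members were called, and 3 with the epithelial covariate or with only the groups compared. Array weights gave 366 genes in DSS CD103+CD11b+ against CD103-CD11b+ cells in place of 221, and 1 in place of 0 for the difference in DSS change between CD103+CD11b- and CD103+CD11b+ cells. For DSS against untreated, only the groups compared gave 0 in place of 12 in CD103+CD11b+ cells and 3 in place of 14 in CD103-CD11b+ cells, an intensity trend gave 24 in the last, and no filter gave 16 in place of 26 over all subsets. The cause was not tested.

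Leaving out an array or an experiment, members called ranged in DSS mice from 2 to 3 for CD103+CD11b- cells against CD103-CD11b+ cells, 1 to 3 for the same cells against CD103+CD11b+ cells, and 0 to 0 for the remaining pair. In untreated mice the ranges were 2 to 4, 3 to 4 and 0 to 1, and for every change with DSS 0 to 0. Genes called ranged from 622 to 1062, 428 to 676 and 39 to 203 in the DSS comparisons in that order, and from 953 to 1267, 588 to 1011 and 176 to 571 in the untreated ones. They ranged from 3 to 15, 5 to 50 and 5 to 29 for DSS against untreated in CD103+CD11b- cells, CD103+CD11b+ cells and then CD103-CD11b+ cells, from 7 to 31 over all subsets and from 0 to 1 for each difference in DSS change. With 3 arrays a group the median standard error of a difference was 0.17. Differences several times that size also went uncalled, such as 0.71 for Aldh1a3 with DSS in CD103-CD11b+ cells (limma, adjusted p = 0.103). The lack of a call is thus not a lack of difference.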

Other observations

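Lists of dendritic cell identity, which played no part in choosing the genes above, separated the subsets. The cDC1 list holds Itgae and the cDC2 list holds Itgam, which encode sort markers, so part of this separation follows from the sort. The mean of 10 cDC1 markers was 8.54, 7.12 and 6.79 in CD103+CD11b- cells, CD103+CD11b+ cells and then CD103-CD11b+ cells of DSS mice, and 8.48, 6.92 and 6.31 in those of untreated mice. The mean of 9 cDC2 markers was 5.80, 7.58 and 7.97 in DSS mice and 5.39, 7.76 and 8.00 in untreated mice. Markers of migratory and mature dendritic cells averaged 8.48, 8.83 and 8.71 in DSS mice and 8.51, 9.01 and 8.57 in untreated mice, and monocyte markers 7.28, 7.31 and 8.16 in DSS mice and 7.003, 7.20 and 7.83 in untreated mice.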
